A study of Mus musculus with 18 samples.

Results

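Bone morphogenetic protein (BMP) signalling in the ovary of the newborn mouse was followed through 10 genes, chosen by name among the 30172 gene symbols of the study. They are the ligands Bmp2, Bmp4 and Bmp7, the receptors Bmpr1a, Bmpr1b and Bmpr2, the signal transducers Smad1 and Smad5, and the target genes Id1 and Id3. All 10 were found in every library and all 10 passed the filter on low values in every comparison. The libraries came from whole ovaries of wild-type C57BL/6J F1 females at postnatal day 3 (Pd3), Pd7 and Pd21. Their mothers ate either a normal diet (F1-Control) or a diet with 3% methionine by weight, which raises homocysteine in the blood (maternal hyperhomocysteinemia, F1-HHcy), from 4 weeks before mating, per the labels, through gestation and lactation. The paper's methods instead give 6 weeks of feeding before mating, starting at 3 weeks of age, so the start of the diet is not settled. No treatment of the pups themselves is given for either group. Each of the 6 groups of diet and day had 3 libraries, 18 in all, and neither the labels nor the methods say whether a library held 1 pup or several, or how many litters the pups came from. The p-values below then measure the spread between these libraries.

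BMP ligands are secreted proteins that bind a pair of type I receptors (such as BMPR1A and BMPR1B) together with a pair of type II receptors (such as BMPR2). The type II receptor activates the type I receptor, which phosphorylates SMAD1 and SMAD5, and these enter the nucleus with SMAD4 and switch on early target genes, of which the Id genes are the best known. In the ovary, ligands come from the oocyte as well as from theca and stromal cells, and granulosa cells carry receptors of both types. None of the measurements here concerns phosphorylated SMAD protein, so they describe transcripts of the pathway and not its activity.

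Levels are in FPKM, which divides the fragments of a gene by its length and by the depth of the library, and depth ran from 33630641 to 39399281 fragments. The members were covered by 122 fragments (Bmp2, the lowest value of any library) to 19739 fragments (Bmpr2, the highest). Of the markers fixed for the tissue, all 8 oocyte markers passed the filter on low values on every day, and 6, 8 and 8 of the 8 granulosa cell markers did at Pd3, Pd7 and Pd21. The third F1-HHcy library of Pd3 stood apart: its log2 values correlated at 0.949 and 0.963 across genes with the other libraries of its group, against 0.966 or more for every other pair of libraries in a group, and its 9 immediate early genes (Fos, Egr1 and others that many stimuli induce rapidly) summed to 3048 FPKM, against 239 to 409 in the other Pd3 libraries. Results of the members and of called pathway genes that rest on it are given without it too. Pd3 and Pd7 were labelled batch 1 and Pd21 batch 2, so that age and batch cannot be told apart in any statement that sets Pd21 beside another day.

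In GENCODE M21 (GRCm38) the gene of Id3 spans chr4:136143497-136145755 on the plus strand, Bmpr1b chr3:141837136-142169425 on the minus strand, Bmpr2 chr1:59763400-59879014 on the plus strand and Bmp4 chr14:46383520-46390669 on the minus strand. Of the 10 members, 7 had promoters in the RefSeq table for GRCm38.p6 used here, 11 promoters in all, each covering 250 bases before and 50 after a transcription start. Those of Id3 and Bmpr2 and 2 of the 3 of Bmpr1b are shown because Id3 and Bmpr1b carried the changes described below and Bmpr2 is the member whose levels ran most closely with those of Bmpr1b. The printed sequence of Bmpr2, like the others, lies inside its annotated gene. Capitals mark GGCGCC, a GC-rich element known to bind SMAD1 and SMAD5, or its variant GGAGCC, which is read as GGCTCC on the other strand. GGCGCC was found in 11.9% and GGAGCC in 30.8% of the 32851 promoters of the table, both strands searched, so that neither match sets a promoter apart, and no printed sequence held more than 1 match. The third promoter of Bmpr1b, which overlaps the second, held GGAGCC on the other strand starting 43 bases before its start. The palindromic SMAD element GTCTAGAC was in 0.213% of all promoters and in none of the 11 of the members.
Id3, chr4:136143572-136143871, plus strand, inside the annotated gene at its 5′ end, GGAGCC on the other strand starting 187 bases before the start: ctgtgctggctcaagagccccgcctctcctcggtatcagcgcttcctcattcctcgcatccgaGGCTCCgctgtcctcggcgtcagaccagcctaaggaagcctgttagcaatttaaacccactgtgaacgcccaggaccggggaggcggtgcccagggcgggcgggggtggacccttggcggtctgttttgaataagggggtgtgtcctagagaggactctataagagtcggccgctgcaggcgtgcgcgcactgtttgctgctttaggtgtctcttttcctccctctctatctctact
Bmpr1b, chr3:141982215-141982514, minus strand, inside the annotated gene, no match: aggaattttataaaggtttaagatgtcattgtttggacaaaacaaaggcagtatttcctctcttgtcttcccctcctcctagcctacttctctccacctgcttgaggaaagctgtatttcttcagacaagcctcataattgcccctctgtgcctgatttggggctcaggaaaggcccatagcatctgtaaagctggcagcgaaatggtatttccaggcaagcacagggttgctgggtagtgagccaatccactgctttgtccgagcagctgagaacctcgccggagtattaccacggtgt
Bmpr1b, chr3:141931539-141931838, minus strand, a second start inside the same gene, GGAGCC 141 bases before it: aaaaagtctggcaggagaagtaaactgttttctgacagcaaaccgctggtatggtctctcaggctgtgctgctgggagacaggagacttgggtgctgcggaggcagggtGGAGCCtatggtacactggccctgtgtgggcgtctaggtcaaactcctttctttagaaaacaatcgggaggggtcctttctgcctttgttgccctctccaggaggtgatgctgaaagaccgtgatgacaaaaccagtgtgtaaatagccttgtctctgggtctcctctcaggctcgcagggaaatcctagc
Bmpr2, chr1:59764029-59764328, plus strand, GGCGCC 105 bases before the start: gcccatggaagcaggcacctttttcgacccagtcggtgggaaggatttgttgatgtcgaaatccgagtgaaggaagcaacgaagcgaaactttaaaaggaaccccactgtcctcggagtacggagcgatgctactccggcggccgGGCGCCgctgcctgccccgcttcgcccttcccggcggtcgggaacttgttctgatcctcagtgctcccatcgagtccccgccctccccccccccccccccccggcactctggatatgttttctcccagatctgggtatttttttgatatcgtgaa

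Among the members the levels spanned from the abundant Id3, with a mean of 107 FPKM over the 18 libraries, to Bmp2 with 2.46. Id1 followed Id3 at 45.2 FPKM, then Bmpr1a at 34.2, Smad5 at 27.2, Bmpr2 at 21.1, Smad1 at 8.26, Bmpr1b at 8.17, Bmp4 at 6.32 and Bmp7 at 5.65. FPKM divides by gene length, and the lengths behind these values differed from the exon lengths of GENCODE M21 for some members, most for Smad1 (3227 against 6262 bases), Id3 (953 against 1791), Bmpr1b (9919 against 5962) and Bmpr2 (11804 against 17983). The order of genes of near levels therefore depends on the annotation, while comparisons of a gene between libraries do not. The steadiest member was Bmpr1a, which lay between 29.6 and 40.5 FPKM over all diets and days, a ratio of 1.37 between the highest and the lowest library, against ratios of 5.24 for Bmpr1b and 5.83 for Id1.

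**Figure D1:**
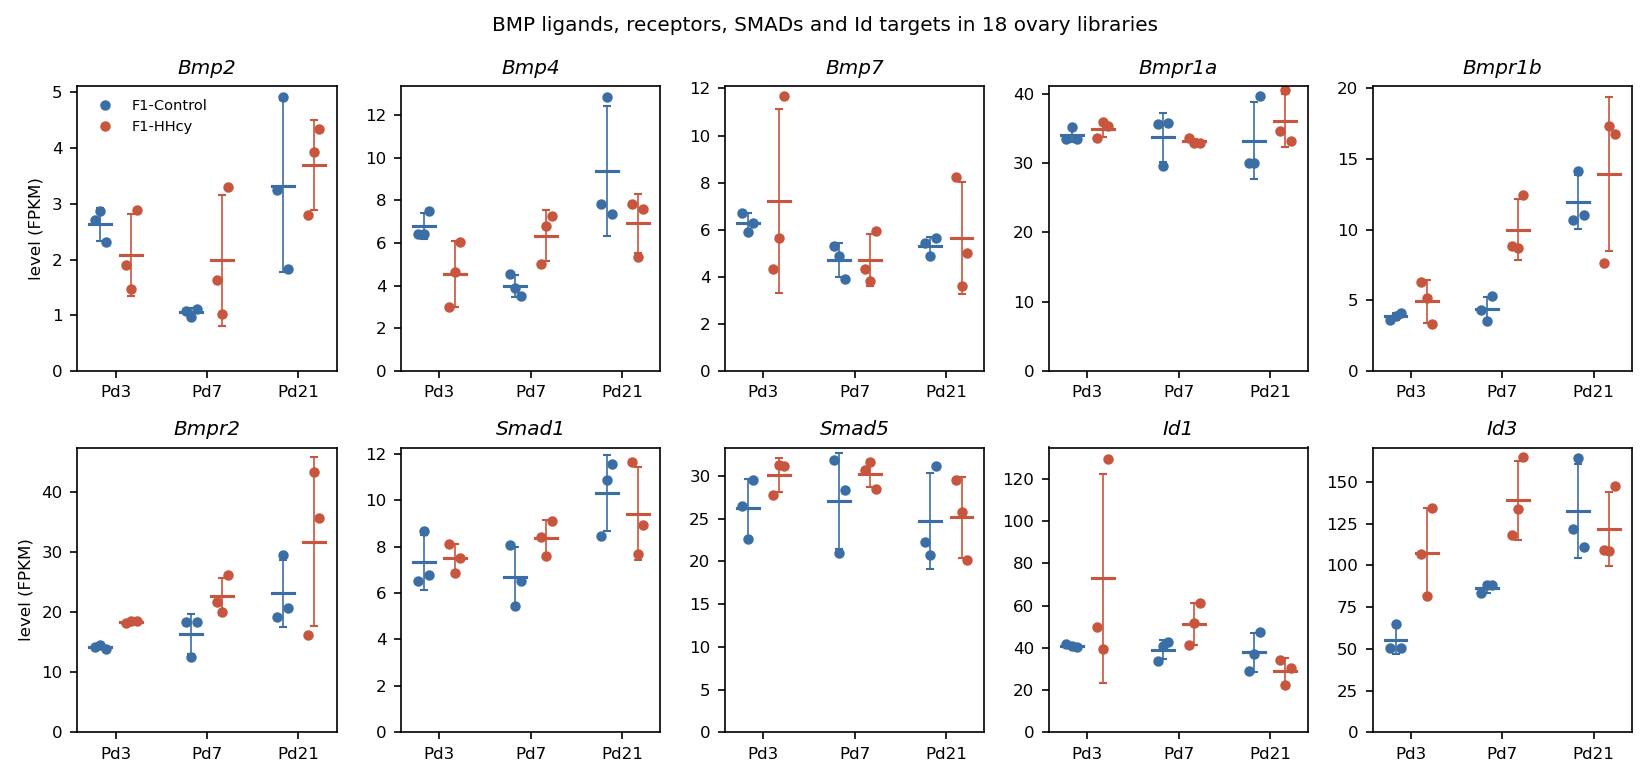
Levels of the 10 members in FPKM (vertical axis, from 0) by postnatal day, with F1-Control in blue and F1-HHcy in red. Points are single libraries, horizontal lines are means and whiskers are the SD over 3 libraries. Id3 at Pd3 and Pd7 and Bmpr1b at Pd7 show F1-HHcy libraries above all F1-Control libraries, Bmpr1a is flat, and Id1 has 1 high library of 129 FPKM at Pd3.

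The effect of the maternal diet was asked first for each day, with F1-HHcy set against F1-Control. A gene was counted as higher or lower when the unadjusted p of limma on log2(FPKM + 1) was under 0.05 and the log2 fold change was above 0.58 in size, and the Benjamini-Hochberg adjusted p over all genes tested that day is given beside it. At Pd3, 1 member of 10 was higher and none was lower, beside 5% and 4.74% of the 13277 genes tested. At Pd7, 2 of 10 were higher and none was lower, beside 9.06% and 7.35% of the 13299 genes tested. At Pd21, none of the 10 was called by limma, by limma-voom on recovered fragments, or at an unadjusted p under 0.05 alone, beside 0.0824% of 13350 genes called higher and 5.06% called lower. With an adjusted p under 0.05 as the criterion, none of the 10 passed at Pd3 (3 had an unadjusted p under 0.05), 2 passed at Pd7 and none at Pd21, beside 3.07%, 11.9% and 2.23% of all genes tested. The median log2 fold change of the members was 0.13 at Pd3, 0.41 at Pd7 and 0.02 at Pd21, beside -0.03, -0.0015 and -0.01 over all genes tested. In these bulk libraries fewer cells of a type and less RNA per cell cannot be told apart.

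**Figure D2:**
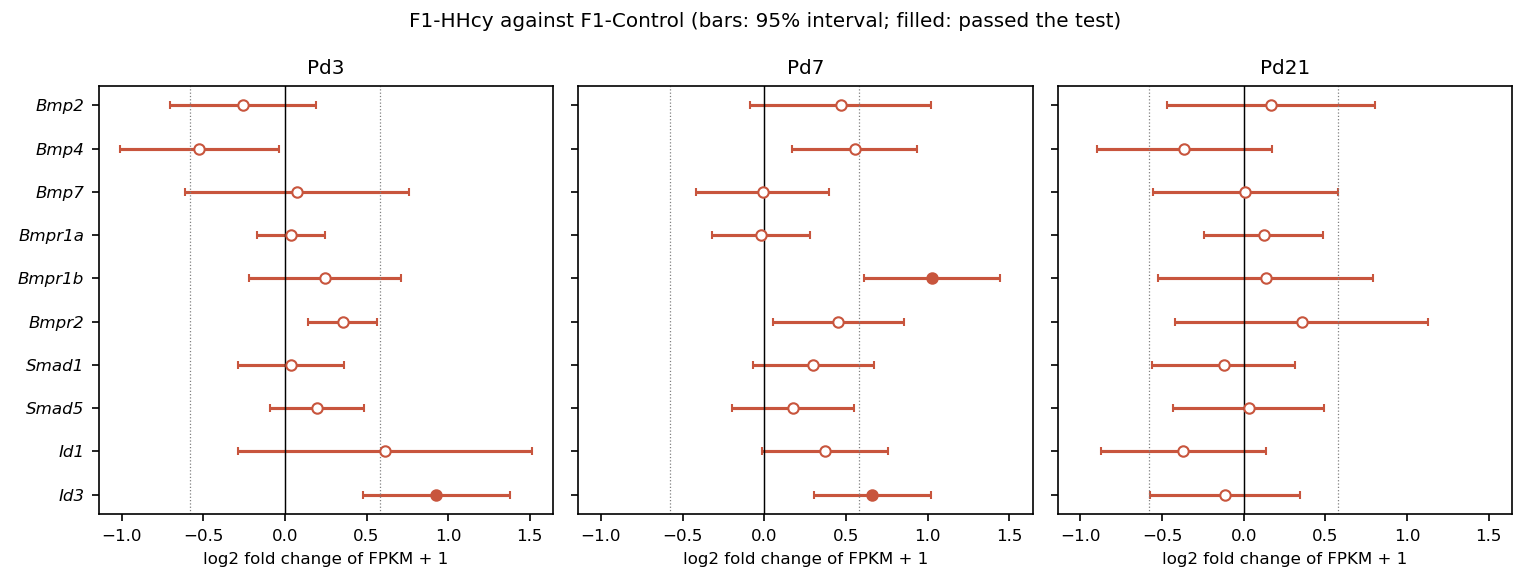
Log2 fold change of FPKM + 1, F1-HHcy against F1-Control, for each member (rows) at Pd3, Pd7 and Pd21 (panels). Points are limma estimates from 3 libraries against 3, bars are 95% intervals, filled points passed the test and dotted lines stand at 0.58 in either direction. Id3 is filled at Pd3 (0.93) and Pd7 (0.66) and Bmpr1b at Pd7 (1.03), and no point is filled at Pd21.

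The ligands came first in the order of the pathway, and none of them passed the test between diets on any day. Bmp4, a ligand of theca and stroma that binds BMPR1A and BMPR1B, had groups that did not overlap at Pd3 or at Pd7, with diet differences in opposite directions on these days. At Pd3 it stood at 6.43, 6.44 and 7.51 FPKM in F1-Control and at 2.99, 4.62 and 6.06 in F1-HHcy, with every F1-HHcy library below every F1-Control library. This gave a log2 fold change of -0.52 (SE 0.21, 95% interval -1.01 to -0.04, limma adjusted p = 0.198), whose size fell short of the threshold. At Pd7 Bmp4 stood at 4.54, 3.87 and 3.50 FPKM in F1-Control and at 5.01, 6.77 and 7.25 in F1-HHcy, and there the F1-HHcy libraries all lay above. Here the log2 fold change was 0.55 (SE 0.17, 95% interval 0.17 to 0.94, limma adjusted p = 0.0632), again just under the threshold of size.

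Bmp4 lay so near the threshold that the processing decided its call. With a pseudocount of 0.1 in place of 1 it passed on both days, at -0.62 for Pd3 and 0.65 for Pd7, and with limma-voom on recovered fragments at -0.64 and 0.67, the adjusted p ranging from 0.0658 to 0.204 over these 4 fits. Without the third F1-HHcy library of Pd3, the log2 fold change of Bmp4 at Pd3 was -0.72 with a limma adjusted p of 0.0231, and without the first it was -0.30. At Pd7, leaving out the first F1-Control library gave 0.64 and leaving out the first F1-HHcy library gave 0.69, and both passed (limma adjusted p = 0.0710 and 0.0840). Over all 6 fits at Pd7 that left out 1 library it was 0.46 to 0.69, with adjusted p-values of 0.0710 to 0.208, and the other fits did not pass. The diet difference of Bmp4 at Pd7 exceeded that at Pd3 by 1.08 on the log2 scale (SE 0.31, 95% interval 0.42 to 1.74), tested in 1 model of all 18 libraries over 14607 genes, with a limma adjusted p of 0.143. Leaving out the third F1-HHcy library of Pd3 raised this to 1.27 with an adjusted p of 0.0440. Over the 12 fits that left out 1 library of Pd3 or Pd7 it was 0.86 to 1.27. The adjusted p-values of these fits were 0.0440 to 0.304, and no other fit passed. At Pd21 the groups overlapped, with 7.37 to 12.9 FPKM in F1-Control and 5.34 to 7.83 in F1-HHcy.

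Bmp2 and Bmp7, both also known from cell fate decisions elsewhere in the embryo, overlapped between the diets on every day. Bmp2 stood at 1.07, 0.976 and 1.12 FPKM in F1-Control at Pd7 and at 1.64, 1.02 and 3.30 in F1-HHcy, which gave a log2 fold change of 0.47 (SE 0.25, limma adjusted p = 0.223). A single F1-HHcy library of 3.30 FPKM, the third, was the high value there, and without it Bmp2 did not pass. Without the second F1-HHcy library, the lowest, the log2 fold change was 0.71 and passed (limma adjusted p = 0.117), a fit that leans more on the high library. Bmp7 at Pd3 ran from 5.90 to 6.69 FPKM in F1-Control and stood at 4.33, 5.66 and 11.7 in F1-HHcy, where the high value was that of the library with the high immediate early genes. Its log2 fold change was 0.07 (SE 0.29) at Pd3 (-0.29 without that library, limma adjusted p = 0.180), -0.01 (SE 0.18) at Pd7 and 0.01 (SE 0.25) at Pd21. Of the summed FPKM of the 3 ligands, Bmp4 made up 40.6 to 46.6% in F1-Control and 29.4 to 39.3% in F1-HHcy at Pd3, and 39.8 to 41.6% against 43.9 to 58.3% at Pd7. The lowest share at Pd3, 29.4%, was that of the library with the high immediate early genes, and the other F1-HHcy libraries of Pd3 had 32.4 and 39.3%. These shares largely restate the Bmp4 values above, and no such share was taken over all genes.

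Among the receptors, 1 of 3 passed the test. Bmpr1b, the type I receptor best known in the ovary for its role in granulosa cells and in ovulation rate, rose at Pd7. It stood at 4.32, 3.52 and 5.27 FPKM in F1-Control and at 8.82, 8.67 and 12.5 in F1-HHcy, so that the lowest F1-HHcy library lay well above the highest F1-Control library. The means were 4.37 ± 0.872 and 9.99 ± 2.15 FPKM (SD, n = 3), and the log2 fold change was 1.03 (SE 0.19, 95% interval 0.61 to 1.45), with a limma adjusted p of 0.00984. Leaving out each of the 6 libraries in turn gave 0.87 to 1.15 with adjusted p-values up to 0.0403, and Bmpr1b passed each time. At Pd3 Bmpr1b stood at 3.63, 3.88 and 4.11 FPKM in F1-Control and at 6.32, 5.14 and 3.31 in F1-HHcy, where the library with the high immediate early genes was the lowest of all 6 and made the groups overlap. The log2 fold change at Pd3 was 0.25 (SE 0.20, limma adjusted p = 0.500), and 0.46 with an adjusted p of 0.0478 without that library, still under the threshold of size. At Pd21 the F1-Control libraries held 10.7, 14.1 and 11.1 FPKM and the F1-HHcy libraries 7.64, 17.3 and 16.8, which is 0.13 on the log2 scale (SE 0.29, 95% interval -0.53 to 0.79). The rise at Pd7 exceeded the difference at Pd3 by 0.78 (SE 0.36) and that at Pd21 by 0.89 (SE 0.36) on the log2 scale, with limma adjusted p-values of 0.353 and 0.185, so a difference of the Bmpr1b response between days did not pass the adjusted test.

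Markers of several cell types differed beside Bmpr1b at Pd7. The sum of 8 granulosa cell markers was 210 to 480 FPKM in F1-Control and 508 to 829 in F1-HHcy at Pd7, and 6 of the 8 were higher, with none lower and none at 0. Esr2, the estrogen receptor of granulosa cells, had a log2 fold change of 1.37 and Inha, the inhibin alpha subunit, 1.40, while Foxl2, which every granulosa cell expresses, had 0.34 and did not pass. The 6 theca and steroidogenic markers, also all above 0, summed to 216 to 449 FPKM in F1-Control and 1136 to 1195 in F1-HHcy, and 6 of 6 were higher. Only 2 of them passed the filter when F1-Control libraries of Pd3 and Pd7 were compared. The others thus passed here with the help of the high F1-HHcy libraries, so the filter set part of that count. Of the 8 oocyte markers 6 were lower and 1 was higher, with sums of 756 to 1265 FPKM in F1-Control and 595 to 887 in F1-HHcy. Surface epithelium markers (6 of 8) and erythroid markers (5 of 5 tested) were lower too. The part of these cell types in the Bmpr1b result was not tested. Over the 18 libraries the genes most like Bmpr1b were Foxo1 (Pearson r = 0.982 of log2 values) and Mctp1 (r = 0.978), a description over libraries that share day, batch and follicle content.

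**Figure D3:**
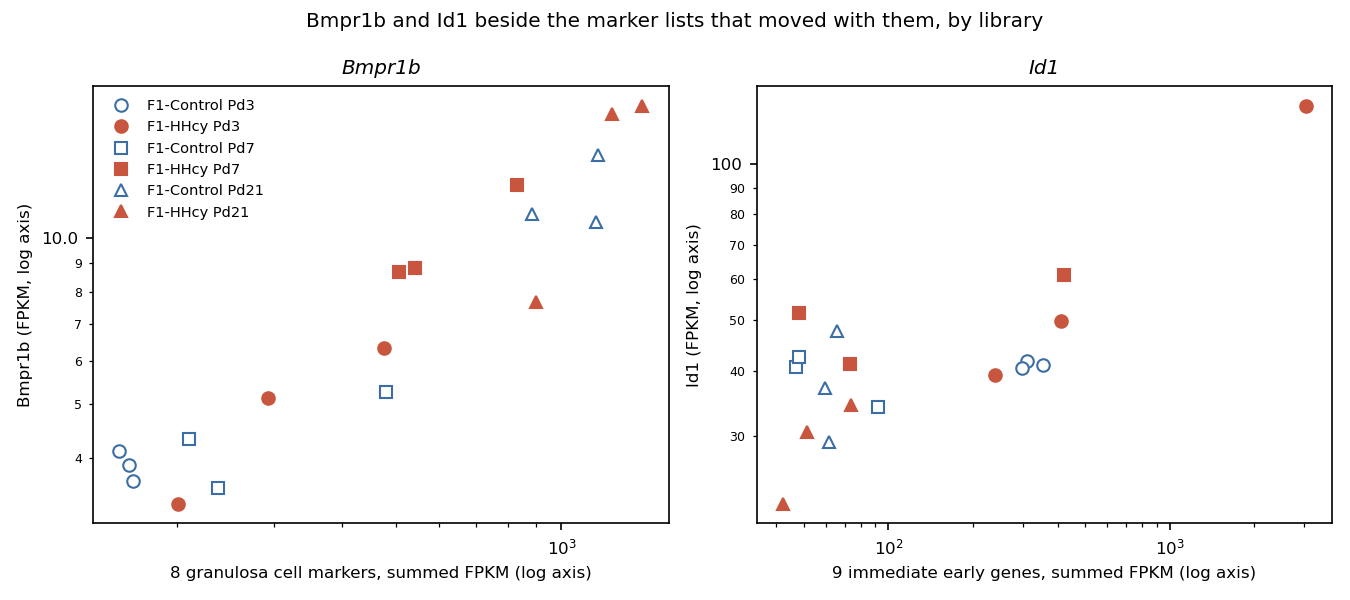
Left, Bmpr1b against the summed level of 8 granulosa cell markers, and right, Id1 against the summed level of 9 immediate early genes, both in FPKM on log axes, with 1 point per library. Circles are Pd3, squares Pd7 and triangles Pd21, open for F1-Control and filled for F1-HHcy. Bmpr1b is high where the granulosa markers are high, and the highest Id1 value, 129 FPKM, belongs to the library whose immediate early genes sum to 3048 FPKM.

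Bmpr1a, the other type I receptor, gave no such difference. Its log2 fold change was 0.04 (95% interval -0.17 to 0.25) at Pd3, -0.02 (-0.32 to 0.28) at Pd7 and 0.12 (-0.24 to 0.49) at Pd21, and all 3 intervals lie inside the threshold of 0.58. The ratio of Bmpr1b to Bmpr1a in a library, both in FPKM, was 0.119 to 0.147 in F1-Control and 0.262 to 0.379 in F1-HHcy at Pd7. At Pd21 it was 0.279 to 0.469 in F1-Control and 0.220 to 0.504 in F1-HHcy, a range that the F1-HHcy libraries of Pd7 overlapped. At Pd3 it was 0.109 to 0.123 in F1-Control and 0.0937 to 0.188 in F1-HHcy.

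Bmpr2, the type II receptor, lay higher in every F1-HHcy library than in every F1-Control library at Pd3 and at Pd7, without passing the threshold of size. At Pd3 it stood at 14.3, 14.5 and 13.9 FPKM in F1-Control and at 18.2, 18.6 and 18.5 in F1-HHcy, the tightest pair of groups of any member. Its log2 fold change was 0.35 (SE 0.09, limma adjusted p = 0.0815), and 0.35 with an adjusted p of 0.0409 without the third F1-HHcy library. At Pd7 the values were 18.4, 12.5 and 18.3 FPKM against 21.7, 20.1 and 26.2, which gave 0.45 on the log2 scale (SE 0.18, limma adjusted p = 0.121). Groups that did not overlap were found for 3 of the 10 members at Pd3 (Bmp4, Bmpr2 and Id3) and for 4 at Pd7 (Bmp4, Bmpr1b, Bmpr2 and Id3), where 27.9% and 39% of all genes tested did not overlap, and for none at Pd21, against 10.5%. At Pd21 Bmpr2 ranged from 19.3 to 29.6 FPKM in F1-Control and stood at 16.2, 43.4 and 35.8 in F1-HHcy, and without the first F1-HHcy library its log2 fold change went from 0.35 to 0.76 and passed (limma adjusted p = 0.186). That library was also the lowest of the 3 for Bmpr1b.

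Smad1 and Smad5, which carry the signal from the receptors, showed no call on any day. Smad5 was the more abundant, by 1.91 to 4.57 times in FPKM in a library, a ratio that depends on the gene length used for Smad1. Its log2 fold change was 0.20 (SE 0.12) at Pd3, 0.17 (SE 0.17) at Pd7 and 0.03 (SE 0.20) at Pd21. That of Smad1 was 0.04 (SE 0.14), 0.30 (SE 0.17) and -0.12 (SE 0.19). The upper bounds of the 95% intervals of Smad1 were 0.36, 0.67 and 0.31, so that the interval at Pd7 reached past 0.58.

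Id3, an inhibitor of basic helix-loop-helix transcription factors and a direct SMAD target, rose in F1-HHcy at Pd3 and at Pd7. At Pd3 it stood at 50.6, 65.0 and 50.4 FPKM in F1-Control and at 106.9, 81.5 and 134.5 in F1-HHcy. The lowest F1-HHcy library exceeded the highest F1-Control library, and the means were 55.3 ± 8.40 and 107.7 ± 26.5 FPKM (SD, n = 3). On the log2 scale Id3 was higher by 0.93 (SE 0.19, 95% interval 0.48 to 1.38), which passed the unadjusted criterion, and its limma adjusted p of 0.0510 just missed 0.05. Without the library with the high immediate early genes, which also had the most Id3, it was 0.75 with an adjusted p of 0.0153, and in the other 5 fits that left out 1 library the adjusted p was 0.0580 to 0.247. Stroma markers were higher at Pd3 too, 6 of 7 of them with none lower. They summed to 647 to 872 FPKM in F1-Control and 1131 to 1371 in F1-HHcy, with none at 0. Granulosa cell (4 of 6 tested), endothelial (4 of 8) and smooth muscle and pericyte markers (1 of 6) were also higher, with none lower. Erythroid (6 of 6) and surface epithelium markers (3 of 8) were lower, with none higher. Of 8 oocyte markers 3 were higher and 2 lower. The part of these markers in the Id3 result at Pd3 was not tested. At Pd7 Id3 stood at 83.2, 88.5 and 88.4 FPKM in F1-Control and at 118, 134 and 165 in F1-HHcy, again with no overlap. The log2 fold change was 0.66 (SE 0.16, 95% interval 0.30 to 1.02), with a limma adjusted p of 0.0295. With 1 library left out the adjusted p was 0.0476 to 0.0907, at or above 0.05 in 5 of 6 fits. The log2 fold change was 0.53 and no longer passed without the third F1-HHcy library, in which the immediate early genes summed to 422 FPKM against 48.1 and 73.0 in the other F1-HHcy libraries of Pd7. Of 7 stroma markers 1 was higher and 1 lower at Pd7, with sums of 1209 to 1503 FPKM in F1-Control and 855 to 1354 in F1-HHcy. The part of these and of the Pd7 markers given beside Bmpr1b in the Id3 result at Pd7 was not tested.

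At Pd21 the Id3 values of the diets overlapped, with 122, 165 and 111 FPKM in F1-Control and 109, 109 and 147 in F1-HHcy, and the log2 fold change was -0.12 (SE 0.20, 95% interval -0.58 to 0.34). The diet difference at Pd21 was lower than that at Pd3 by 1.05 on the log2 scale (-1.05, SE 0.27, 95% interval -1.63 to -0.47), with a limma adjusted p of 0.0376. Id3 was the only member of 10 with such a difference between days at an adjusted p under 0.05, where 4.59% of 14607 genes passed for Pd21 against Pd3. Id1 had a difference of -0.98 (SE 0.44, adjusted p = 0.274) there, at an unadjusted p under 0.05. None of the 10 passed for Pd7 against Pd3 (background 0.411%, with Bmp4 and Bmpr1b at an unadjusted p under 0.05) or for Pd21 against Pd7 (background 3.89%, with Bmp4, Bmpr1b and Id3). The adjusted p of Id3 was lost in 10 of the 18 fits that left out 1 library, ranging from 0.0165 to 0.115 over those in which the library was of Pd3 or Pd21, and the batch of Pd21 cannot be told apart from its age.

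Id1, the sister gene of Id3, did not pass on any day. At Pd3 the F1-Control libraries lay close together at 41.8, 41.0 and 40.5 FPKM, and the F1-HHcy libraries stood at 49.9, 39.2 and 129. The log2 fold change was 0.61 (SE 0.39, 95% interval -0.29 to 1.52, limma adjusted p = 0.388), and 0.11 without the library with the high immediate early genes. It was 0.95 and passed without the second F1-HHcy library, the lowest, with an adjusted p of 0.264. At Pd7 Id1 stood at 34.0, 40.7 and 42.6 FPKM against 41.1, 51.6 and 61.3, with a log2 fold change of 0.37 (SE 0.17, limma adjusted p = 0.171). Id1 was most like Dusp6 over the 18 libraries (r = 0.928), a phosphatase induced by growth factor signals, whereas Id3 was most like Dact1 (r = 0.919).

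Between Pd3 and Pd7, 2 ligands fell and Id3 rose in the F1-Control ovary. Of the 10 members, 1 was higher at Pd7 and 2 were lower, beside 7% and 7.77% of the 13336 genes tested. Bmp2, the ligand of lowest level, went from 2.72, 2.87 and 2.31 FPKM at Pd3 to 1.07, 0.976 and 1.12 at Pd7, which is -0.82 on the log2 scale (SE 0.14, limma adjusted p = 0.00748). Bmp4 fell by 0.65 on the log2 scale (SE 0.15, adjusted p = 0.0211), from 6.79 ± 0.622 to 3.97 ± 0.527 FPKM (SD, n = 3). Bmp7 pointed the same way, at -0.36 (SE 0.15, adjusted p = 0.135), and did not pass. Id3 rose by 0.65 on the log2 scale (SE 0.14, adjusted p = 0.0166), its mean going from 55.3 to 86.7 FPKM, while the 3 receptors and both SMADs had log2 fold changes between -0.12 and 0.17. Of all called genes in this comparison 47.4% were higher, and 57.8% after median-ratio scaling, under which 3 members passed as well. The 9 immediate early genes were all lower at Pd7, with sums of 298 to 354 FPKM at Pd3 and 46.9 to 91.7 at Pd7, and 6 of 8 granulosa cell markers were higher and 1 lower. Stroma (4 of 7), endothelial (6 of 8) and smooth muscle and pericyte markers (6 of 6) were also higher at Pd7, and 6 of 6 erythroid markers were lower. The part of these genes in the changes of Bmp2, Bmp4 and Id3 was not tested.

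In F1-HHcy ovaries Bmpr1b was the member that passed over the same interval, going from 4.92 ± 1.52 to 9.99 ± 2.15 FPKM (SD, n = 3), higher by 0.91 on the log2 scale (SE 0.23) with a limma adjusted p of 0.101, where 5.73% of 13257 genes were called higher and 5.36% lower. Without the third F1-HHcy library of Pd3 it was 0.70 (adjusted p = 0.122) and passed, and over all 6 fits that left out 1 library it was 0.70 to 1.08, with adjusted p-values of 0.0339 to 0.321. Theca and steroidogenic markers (6 of 6), smooth muscle and pericyte markers (3 of 6) and granulosa cell markers (2 of 8) were higher over this interval. Oocyte (5 of 8), surface epithelium (4 of 8) and erythroid markers (5 of 5 tested) were lower. The part of all these markers in the Bmpr1b change was not tested. Only 2 theca and steroidogenic markers passed the filter between the diets at Pd3, so the others passed here with the help of the Pd7 libraries. With the adjusted p as the criterion no member and 0% of all genes passed there, although 760 genes were higher and 711 lower by the unadjusted criterion, whereas 3 of 10 members and 14.5% of all genes passed in F1-Control. Bmp2 had a log2 fold change of -0.10 (SE 0.30), Bmp4 0.43 (SE 0.23) and Id3 0.38 (SE 0.21), none of which passed. Without the third F1-HHcy library of Pd3, Bmp4 passed as well at 0.62, and without the first library of that group Bmp7 passed at -0.70. These changes share libraries with the diet comparisons above, and the tests of the difference between the diets' changes are those given for Pd7 against Pd3, none of which passed after adjustment.

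**Figure D4:**
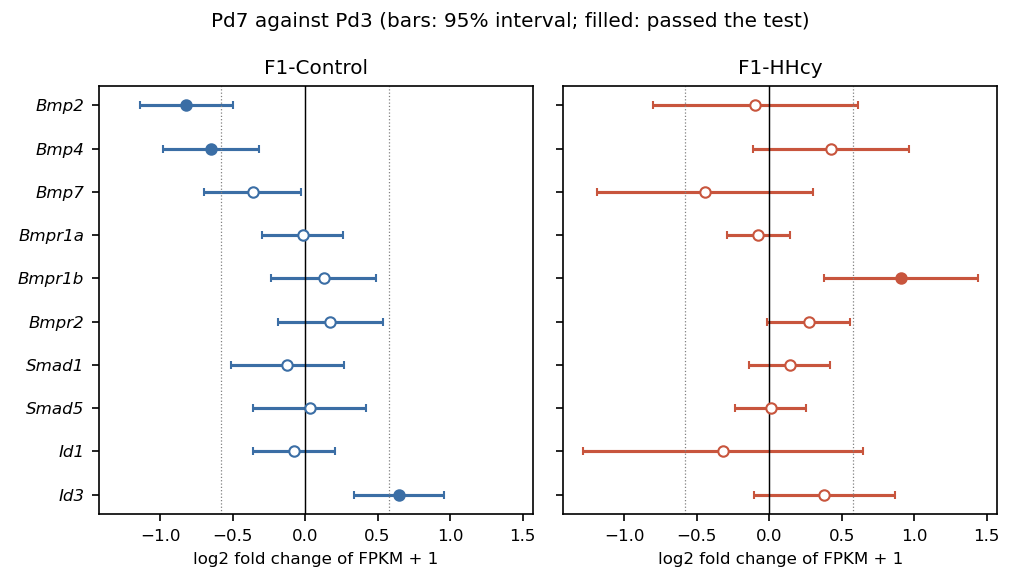
Log2 fold change of FPKM + 1 from Pd3 to Pd7 for each member (rows) in F1-Control (left) and F1-HHcy (right). Points are limma estimates from 3 libraries against 3, bars are 95% intervals, filled points passed the test and dotted lines stand at 0.58 in either direction. Bmp2 (-0.82), Bmp4 (-0.65) and Id3 (0.65) are filled in F1-Control and Bmpr1b (0.91) in F1-HHcy.

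Ordered by mean level, neighbouring groups had ranges that did not overlap in 3 places. The share of such places over all genes was not counted, so these gaps only describe the levels and do not set the members apart from other genes. Bmpr1b and Bmpr2 each had a gap between F1-HHcy Pd7 (9.99 and 22.7 FPKM) and the next group, F1-HHcy Pd3 (4.92 and 18.5), and Id3 had one between F1-Control Pd7 (86.7) and F1-Control Pd3 (55.3). The 3 groups above the gap in Bmpr1b were F1-HHcy Pd21 (13.9), F1-Control Pd21 (12.0) and F1-HHcy Pd7, and those below were F1-HHcy Pd3, F1-Control Pd7 (4.37) and F1-Control Pd3 (3.87). Bmpr2 kept the same order of group means. However, its first F1-HHcy library of Pd21 (16.2 FPKM) lay below all F1-HHcy libraries of Pd3 (18.2 to 18.6 FPKM). Pd21 was another batch, so that its age and batch cannot be told apart in these orders. Over the 18 libraries Bmpr1b and Bmpr2 correlated at r = 0.873, and Bmpr1b and Id3 at r = 0.705, while Bmpr1a correlated with none of the others above 0.532. These r values describe libraries that share day, batch and cell content, and carry no p.

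The other genes of the pathway were counted on 66 genes in 5 lists, of which 46 passed the filter at Pd3 and 45 at Pd7 and at Pd21. At Pd3, 6 of 46 were higher and 2 lower, at Pd7 9 of 45 were higher and 3 lower, and at Pd21 none was higher and 2 were lower, with Tgfbr3, Eng, Zeb2 and Bmp15 among those higher on both Pd3 and Pd7. Without the third F1-HHcy library of Pd3, Rgma no longer passed at Pd3, and Gdf10, Hey2 and Nbl1 were higher. These 3 had log2 fold changes of 0.79, 0.78 and 0.61 (limma adjusted p = 0.0254, 0.0295 and 0.0290). The share of all genes called in that fit was not counted. The median log2 fold change of the tested genes was 0.19, 0.04 and -0.05 on the 3 days. The shares are to be read against the 5%, 9.06% and 0.0824% of all genes that were higher on these days. Over all genes 4.74%, 7.35% and 5.06% were lower, and no test of the lists was made.

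In the list of 13 other ligands, which holds Bmp1 by its name only, 1 of 5 tested was higher at Pd3 and 3 of 6 at Pd7, Bmp1 among them. None was lower on any day. Bmp15, made by growing oocytes, went from 1.22 ± 0.549 to 19.3 ± 15.2 FPKM at Pd3 (log2 fold change 2.79, SE 0.66, limma adjusted p = 0.0644) and from 18.5 ± 6.80 to 65.8 ± 10.8 at Pd7 (1.82, SE 0.23, adjusted p = 0.00300, SD over n = 3). The third F1-HHcy library of Pd3 held 3.70 FPKM against 34.0 and 20.1 in the others of its group, and without it the log2 fold change at Pd3 was 3.64 (adjusted p = 0.000255). Of the 8 oocyte markers 3 were higher and 2 lower at Pd3, and 1 was higher and 6 lower at Pd7, and their part in the Bmp15 results was not tested. At Pd21 Bmp15 was at 83.2 ± 35.5 and 121.1 ± 19.6 FPKM and did not pass. Bmp3, an atypical BMP that opposes the others, rose at Pd7 with a log2 fold change of 1.26 (adjusted p = 0.0494). Bmp1 also rose there, at 0.74 (adjusted p = 0.0547), but despite its name it is a metalloprotease that trims procollagens and chordin, and no ligand.

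Of 10 other receptors and co-receptors, 3 of 9 tested were higher at Pd3 and 2 of 9 at Pd7. Tgfbr3, the co-receptor betaglycan, went from 4.93 ± 0.130 to 9.66 ± 0.970 FPKM at Pd3 (log2 fold change 0.84, limma adjusted p = 0.0211) and from 8.68 ± 2.53 to 17.3 ± 0.516 at Pd7 (0.95, adjusted p = 0.0160, SD over n = 3). Eng, the co-receptor endoglin of endothelial cells, rose from 7.56 to 16.1 FPKM at Pd3 (1.00, adjusted p = 0.0313) and passed at Pd7 with 0.59 (adjusted p = 0.0512). The endothelial markers were also higher at Pd3, 4 of 8 by the same test and their sum at 63.9 to 85.4 FPKM in F1-Control and 93.8 to 144.4 in F1-HHcy, none at 0, and their part in the Eng result was not tested. Rgma, a co-receptor that binds BMP ligands, rose at Pd3 with 0.62 (adjusted p = 0.0578) and had 0.57 at Pd7, just under the threshold of size. Without the third F1-HHcy library of Pd3, Tgfbr3 was at 0.91 and Eng at 1.13 and both passed. Rgma was then at 0.577 (limma adjusted p = 0.0289) and just missed the threshold of size. Neo1, the most abundant gene of this list with a mean of 32.4 FPKM, passed on no day, nor did the type I receptor Acvr1 or the type II receptors Acvr2a and Acvr2b.

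Among 18 extracellular antagonists, 11 were tested on each day, and the abundant Fstl1 and Twsg1, with means of 107 and 66.4 FPKM, passed on no day. In the list of 13 other SMADs and regulators, 12 were tested, and Zeb2, a zinc finger repressor that binds activated SMADs, was the gene that passed, with 0.68 at Pd3 (adjusted p = 0.0829, and 0.85 without the third F1-HHcy library) and 0.60 at Pd7 (adjusted p = 0.0851). The inhibitory Smad6 had 0.54 at Pd3 with groups that did not overlap and missed the threshold of size, and Smad7, Smad4, Fkbp1a and Ski passed on no day.

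Calls among the 12 other targets went in both directions. At Pd3 none of 9 tested was higher and 2 were lower, Gata3 with a log2 fold change of -0.85 (limma adjusted p = 0.0711) and Tal1, a factor of blood and endothelial precursors, with -1.43 (adjusted p = 0.0392). Without the third F1-HHcy library of Pd3 both still passed, at -0.89 and -1.42, and Hey2 was higher at 0.78 (limma adjusted p = 0.0295). All 6 erythroid markers were lower there too, with sums of 3915 to 11214 FPKM in F1-Control and 780 to 1108 in F1-HHcy, and their part in the Tal1 result was not tested. At Pd7, 2 of 7 were higher (Hey2 at 0.73 and Atoh8 at 0.66, adjusted p = 0.0846 and 0.113) and 3 were lower (Hey1 at -0.93, Id4 at -0.64 and Gata3 at -0.61, adjusted p = 0.0170, 0.0698 and 0.0363). At Pd21 Id4 was lower by the largest step of this list on that day, from 6.20 ± 2.66 to 1.83 ± 0.354 FPKM (SD, n = 3), at -1.29 with an adjusted p of 0.0423, and Gata2 passed at -0.83 (adjusted p = 0.729). The surface epithelium markers were lower in F1-HHcy at Pd7 (6 of 8) and Pd21 (7 of 8) and the oviduct epithelium markers at Pd21 (6 of 6 tested, 86.4 to 475 FPKM in F1-Control and 6.56 to 10.04 in F1-HHcy), and their part in the Id4, Hey1 and Gata2 results was not tested. Of the oviduct markers, 4 passed the filter at Pd3 and at Pd7 and 6 at Pd21, where F1-Control was high. The filter may therefore have set part of the 6 of 6. Id2, the most abundant target of the list with a mean of 73.2 FPKM, passed on no day.

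**Figure D5:**
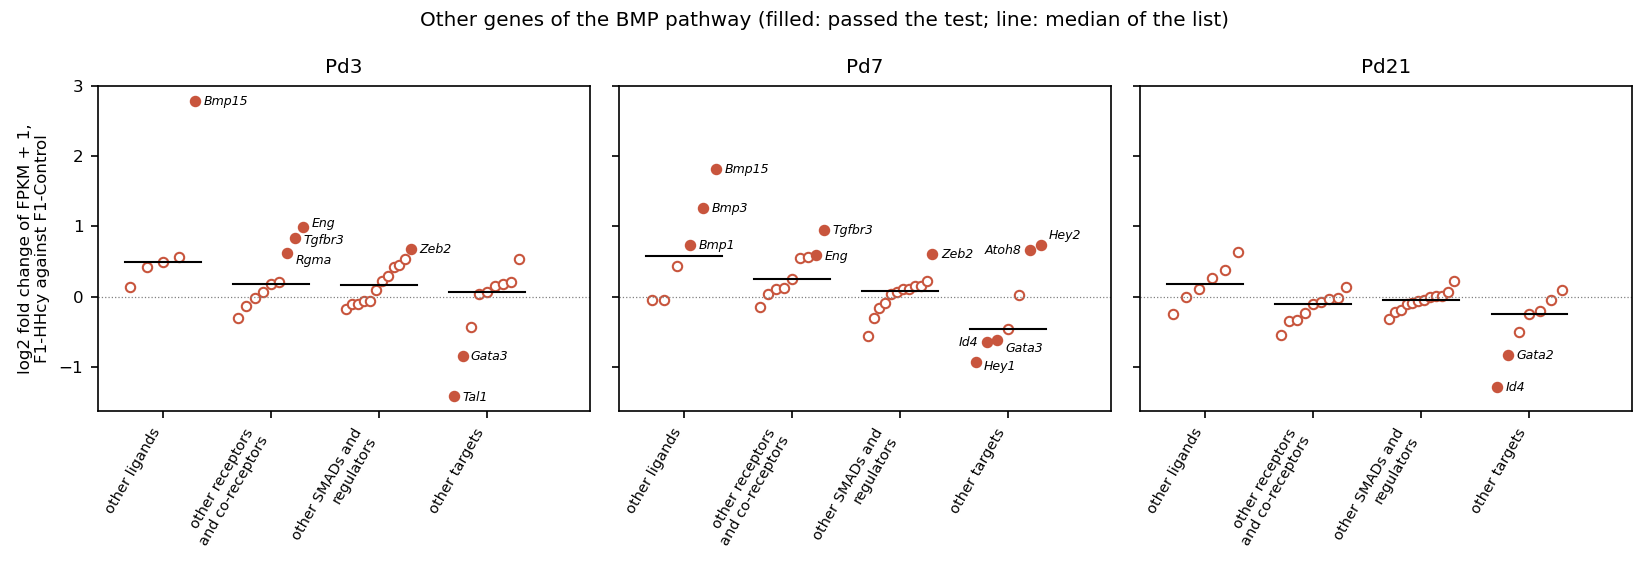
Log2 fold change of FPKM + 1, F1-HHcy against F1-Control, for the tested genes of the pathway lists other than the antagonists at Pd3, Pd7 and Pd21. Each circle is a gene placed by rank within its list, filled and named where it passed the test, and black lines are list medians. Bmp15 has the largest values (2.79 at Pd3 and 1.82 at Pd7), and at Pd21 the filled genes are Gata2 (-0.83) and Id4 (-1.29).

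The remaining members were each most like a gene outside the pathway over the 18 libraries. Bmpr2 was most like Ptbp3 (r = 0.969), Bmp2 like Cited2 (0.930), Smad5 like Dnmt3a (0.930), Bmp7 like Phlda1 (0.924), Smad1 like Cilk1 (0.917), Bmp4 like Mospd3 (0.858) and Bmpr1a like Arhgap5 (0.833). The search ran over 14606 genes for each member, so that the best of so many is high in part by selection.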

How the data were processed

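Total RNA of whole ovaries was made into stranded poly-A libraries, per the labels. For each library the authors deposited 1 linear value per symbol and named no unit. The deposited values were read as FPKM, since dividing out 1 length for each gene and 1 factor for each library left whole fragments in 27294 of 27294 genes above 0 in 3 or more libraries. The submitters' processing notes name STAR 2.7.9a, featureCounts 2.0.1 and GRCm38, without saying what made these values. Diets were compared per day, and Pd7 with Pd3 per diet, with limma 3.58.1 (R 4.3.3) on log2(FPKM + 1), variance trend included, on genes reaching 1 FPKM in 3 or more of the 6 libraries. Adding 1 shrinks the changes of low genes. Differences between days were tested in 1 model of 18 libraries. No further normalization was applied, and all 18 libraries were used. A 2-sided exact permutation test of 3 against 3 cannot go below 0.1.

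Each F1-Control library of Pd3 was most like the Pd7 library of its own replicate number. Their deviations from the group means correlated at 0.134, 0.262 and 0.292 for the same number. These low values were found in the data, the labels give no pairing, and whether the numbers pair the libraries was not tested. The members, the lists and the tests were chosen with earlier results of these data known. The text names all members, the called genes and the 2 most abundant genes of each pathway list, and the genes most like each member. Fits were tested on simulated data, and alternatives were a pseudocount of 0.1, no filter, 1 model, a replicate block, an adjusted p threshold, median-ratio scaling, limma-voom on recovered fragments, and each library left out in turn. Promoters and coordinates were read from RefSeq (GRCm38.p6) and GENCODE M21. Figures were drawn with Python 3.11.15 and matplotlib 3.10.9. A result for 1 gene is not reported here.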

Additional observations from a re-analysis of the deposited data

Results flagged for a closer look

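The diet effect on Id3 differed between Pd21 and Pd3 by a log2 value of -1.05 (SE 0.27) in the model of all 18 libraries, with a limma adjusted p of 0.0376. It was 0.93 at Pd3 and -0.12 at Pd21, and the days lay in different batches.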

How the results depend on the processing

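Of 1360 member values under an alternative, 1332 kept their direction or stayed uncalled and kept their side of the threshold, 15 lost and 13 gained a call, and no called value turned its direction. The 72 sign changes were all of uncalled values, at most 0.318 in size. The count of called members at Pd3 went from 1 to 2 with a pseudocount of 0.1 and with limma-voom on recovered fragments (Bmp4 joined), to 0 with the adjusted p as threshold (3 had an unadjusted p under 0.05), and was 1 to 2 with a library left out. At Pd7 it was 2, and 3 with a pseudocount of 0.1 and with limma-voom (Bmp4 joined), and 1 to 3 with a library left out. At Pd21 it was 0, and 0 to 1 with a library left out. For Pd7 against Pd3 in F1-HHcy it was 1, went to 0 with the adjusted p as threshold, and was 1 to 2 with a library left out. For the difference of the diet effect, Pd7 against Pd3 gave 0, and 0 to 1 with a library left out, while Pd21 against Pd3 gave 1, 0 without a filter on low values, 0 with median-ratio scaling, and 0 to 1 with a library left out. The causes were not tested. With the replicate number as a block, all 8 counts stayed as they were (1 at Pd3, 2 at Pd7, 0 at Pd21, 3 for Pd7 against Pd3 in F1-Control), the same members were called, and none of 80 member values changed its call. The adjusted p of Id3 at Pd3 was 0.145 with the block. Outside F1-Control at Pd3 and Pd7, at least 1 same-number correlation per comparison was under 0.1, and not every library correlated best with its own number. Depth limits little here, since no member fell under 122 fragments in a library, while 3 libraries per group leave 95% intervals as wide as that of Id1 at Pd3 (-0.29 to 1.52).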
